A study of Mus musculus with 12 samples.

Results

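Enpp1 and 9 further genes of ectonucleotidases and related enzymes were followed in pancreatic islets of nonobese diabetic mice treated with a control IgG or with anti-CD3. The set was chosen from earlier results of these data: Enpp1 because its level was higher in the anti-CD3 islets, and Enpp2, Enpp3, Enpp4, Enpp5, Entpd1, Entpd2, Nt5e, Cd38 and Ada because they belong to the same enzyme family or act on the same substrates. The members were found by gene symbol, and 9 of the 10 are among the 13703 genes of the authors' deposited comparison table. Enpp3 is not, and its values come from the count table of 49315 genes. Because the contrast between the treatments chose Enpp1, its values are given as a description, with no test. In normalized counts, which are read counts divided by 1 size factor per library, Enpp1 was 2.02 times higher in anti-CD3 islets. None of the 8 other members that could be tested passed the threshold, in either direction.

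The mice were female, wild-type NOD/ShiLtJ, a strain in which lymphocytes infiltrate the islets and the mice develop autoimmune diabetes. At 9 weeks of age and with normal blood glucose they began weekly injections, which went on for 4 weeks. One group received IgG and the other an antibody to CD3, the signalling part of the T cell receptor, at 2.5 mg/kg. Islets were taken 2 to 3 days after the last injection, and polyadenylated RNA was sequenced as read pairs in 12 libraries, 6 for each treatment. Nothing in the labels ties a library to a single mouse or to a pool. The p-values therefore measure the spread between these libraries, which may be partly technical.

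Nucleotides such as ATP are released from stressed or active cells and signal through P2X and P2Y receptors. Ectoenzymes at the cell surface cut them in steps. ENTPD1 (CD39) and ENTPD2 remove phosphates from ATP and ADP, and ENPP1 and ENPP3 cleave ATP to AMP and pyrophosphate. NT5E (CD73) turns AMP into adenosine. ADA, which is not counted here as a surface enzyme, deaminates adenosine to inosine, and its RNA does not tell where the enzyme acts. ENPP1 also hydrolyses extracellular cGAMP, the messenger that activates STING, and is known as an inhibitor of the insulin receptor. CD38 consumes NAD and forms cyclic ADP-ribose, a calcium-mobilizing messenger. ENPP2 (autotaxin) is a secreted lysophospholipase D that makes lysophosphatidic acid, and ENPP4 hydrolyses diadenosine polyphosphates. ENPP5 is a less well characterized member of the family.

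Enpp1 (ENSMUSG00000037370) lies on the minus strand of chromosome 10 at chr10:24637914-24712159 (GRCm38). Enpp3 (ENSMUSG00000019989) lies in the same orientation at chr10:24772406-24842823. The pair is separated by 60246 bases, with 0 annotated protein-coding genes between them. The neighbours differed in level by far: Enpp1 had at least 99 counts in every library, whereas Enpp3 had 55 counts in all 12 libraries together. The bases just upstream of both starts are therefore shown. Each line holds the 250 bases before the gene's RefSeq start (GRCm38.p6), 5′ to 3′ on the gene's strand. Capitals mark a match on either strand to 1 of 4 short motifs, namely the TATA box TATAAA, the CAAT box CCAAT, the GC box GGGCGG and the CRE core TGACG, which share no bases in these windows.
Enpp1, chr10:24712160-24712409: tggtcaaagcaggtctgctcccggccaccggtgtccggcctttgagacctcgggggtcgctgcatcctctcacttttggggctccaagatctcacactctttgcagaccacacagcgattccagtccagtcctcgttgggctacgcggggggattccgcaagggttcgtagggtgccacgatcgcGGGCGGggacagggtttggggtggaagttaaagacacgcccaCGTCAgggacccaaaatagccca
Enpp3, chr10:24836196-24836445: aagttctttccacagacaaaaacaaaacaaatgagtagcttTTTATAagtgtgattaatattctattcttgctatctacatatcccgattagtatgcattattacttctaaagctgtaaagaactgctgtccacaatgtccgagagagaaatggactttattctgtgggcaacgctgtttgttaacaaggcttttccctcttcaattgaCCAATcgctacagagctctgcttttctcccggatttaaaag
The Enpp1 window held 1 GC box and 1 CRE core, read on the opposite strand as CGTCA, and neither TATAAA nor CCAAT. Of 32536 windows of the same length before RefSeq starts, 33.0% held GGGCGG and 17.9% held TGACG. The Enpp3 window held 1 TATAAA, read on the opposite strand as TTTATA, and 1 CCAAT, motifs present in 12.3% and 33.8% of all windows. G and C made up 61.2% of the Enpp1 window and 36.8% of the Enpp3 window, against a median of 52.4% over all windows. CpG pairs numbered 17 and 5, against a median of 6. These are matches of letters and say nothing of binding. The RefSeq start of Enpp3 lies 6628 bases inside the GENCODE gene, and it is not known which start these islets use.

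The other members stand at 8 further places in GRCm38. Enpp5 (ENSMUSG00000023960, chr17:44078813-44086567, plus strand) and Enpp4 (ENSMUSG00000023961, chr17:44096308-44105809, minus strand) are also neighbours, 9740 bases apart with 0 protein-coding genes between them. Enpp2 (ENSMUSG00000022425) is at chr15:54838901-54952892 on the minus strand. Entpd1 (ENSMUSG00000048120) is at chr19:40612366-40741602 and Entpd2 (ENSMUSG00000015085) at chr2:25395874-25401321, both on the plus strand. Nt5e (ENSMUSG00000032420, chr9:88327197-88372092) and Cd38 (ENSMUSG00000029084, chr5:43868553-43912375) are on the plus strand, and Ada (ENSMUSG00000017697, chr2:163726584-163750239) is on the minus strand. Exons of Entpd2 overlap those of Npdc1 on the same strand. Npdc1 had 6287 counts in the 12 libraries together and Entpd2 628, so reads in the overlap are uncertain for Entpd2.

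Libraries held 11891132 to 17628347 counts in IgG and 10994337 to 19284740 in anti-CD3. The islet label was checked against marker genes. All 10 beta cell genes had at least 10 counts in every library, but together they took only 0.872% to 2.31% of the counts in IgG and 0.696% to 1.54% in anti-CD3. A list of 18 acinar genes of the exocrine pancreas took 55.5% to 61.5% of the counts in anti-CD3. In IgG it took 27.2% in IgG 6 and 46.3% in IgG 5, the libraries that stood apart, and up to 60.1% elsewhere. Size factors that allow for this composition were used. Results are also given without these libraries and, for the tested members and some other genes, without such factors. edgeR's quasi-likelihood test called 10 of 13115 genes (0.0762%) at an adjusted p under 0.05, and DESeq2 called 455 of 12040 (3.78%).

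Enpp1, the ectoenzyme that makes AMP and pyrophosphate from ATP, had normalized counts of 136, 205, 111, 150, 106 and 127 in IgG 1 to 6. In anti-CD3 1 to 6 it had 222, 241, 293, 352, 313 and 269. The groups did not overlap: IgG 2 was the highest control, and the lowest treated library, anti-CD3 1, still lay above it. Over all genes tested, 1.14% were without overlap and higher in anti-CD3 and 0.648% were without overlap and lower. The IgG mean was 139 ± 35.9 and the anti-CD3 mean 282 ± 47.7 (SD, n = 6 each). The fitted difference was 1.02 ± 0.18 on the log2 scale (SE), or 2.03-fold, and the authors' deposited table gives 1.02. In bulk RNA, a change in the number of cells that express a gene and a change in RNA per cell cannot be told apart.

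**Figure D1:**
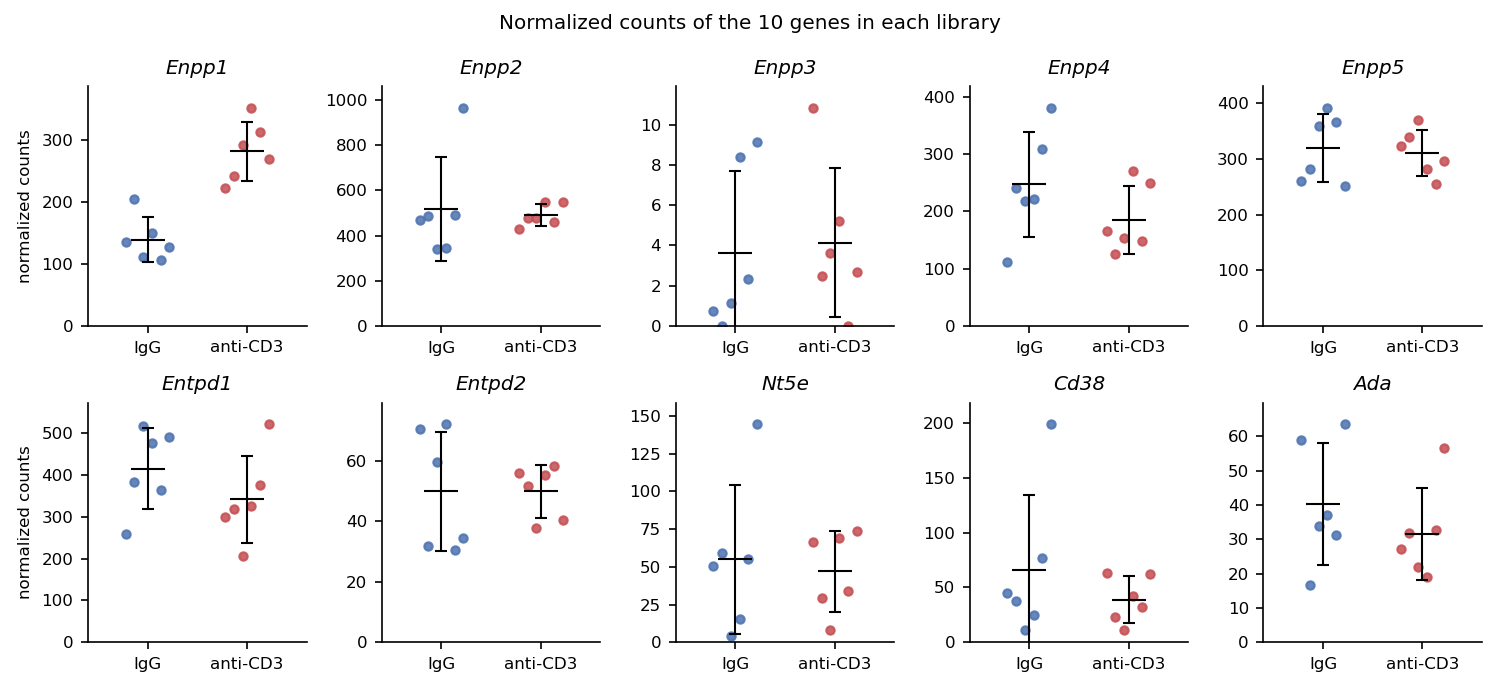
Normalized counts (vertical axes, each from 0) of the 10 genes in the 6 IgG (blue) and 6 anti-CD3 (red) libraries, with 1 point per library and black bars for the mean ± SD. Only in the Enpp1 panel do the point clouds of both groups lie apart, and in the Enpp2 panel 1 IgG library stands alone at 966.

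The size of the Enpp1 difference depended on how the libraries were scaled. As CPM, the count scaled to a fixed library total, Enpp1 ran from 6.43 to 19.8 in the controls and from 11.2 to 21.6 in treated islets. The groups then overlapped, with IgG 6, the library with the lowest acinar share, above 5 of the anti-CD3 libraries, and the ratio of the means was 1.33. As CPM of the counts outside the 18 acinar genes, the ranges were 16.1 to 33.0 in IgG and 27.2 to 49.6 in anti-CD3, again with overlap. With library totals as the only scaling, the fitted log2 difference fell to 0.41 ± 0.27 (SE), while the median over all genes fell from -0.05 to -0.70. It was 0.90 without IgG 5 and IgG 6. A fit with the acinar score (the mean log2 CPM of the 18 genes) as covariate gave 0.94.

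**Figure D2:**
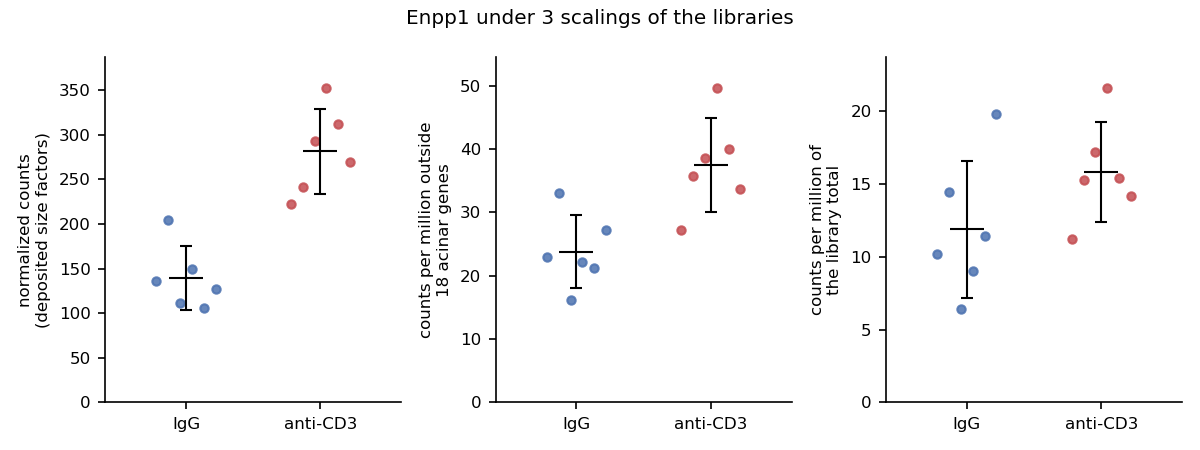
Enpp1 in every library (1 point each, black bars for the mean ± SD) under 3 scalings, as normalized counts, as CPM of the counts outside the 18 acinar genes and as CPM of the library total. The groups lie apart in the first panel and overlap in the other panels, where the ranges for the library total are 6.43 to 19.8 in IgG and 11.2 to 21.6 in anti-CD3.

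Shares within the family need no scaling between libraries, but use the same Enpp1 values that chose the gene and are likewise a description. Per kb of exon, Enpp1 made up 3.90% to 9.30% of the summed level of the 5 Enpp genes in IgG (6.33% ± 2.08, SD, n = 6) and 10.8% to 15.6% in anti-CD3 (12.6% ± 1.88, SD, n = 6). The shares did not overlap. The ratio of Enpp1 to Enpp2 was 0.131 to 0.434 in IgG and 0.490 to 0.679 in anti-CD3, also without overlap. The ratios of Enpp1 to each of the other 7 tested members overlapped between the groups. A share or ratio of this kind shows unequal change and not which gene changed.

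Enpp3, the nearest relative by position and a surface marker of basophils, was close to the limit of detection. Raw counts were 35 in the 6 IgG libraries, of which 23 came from IgG 6, and 20 in the 6 anti-CD3 libraries. It had 0 counts in IgG 2 and in anti-CD3 5, and a count of 0 allows up to 3 counts, or 0.187 CPM in IgG 2 and 0.211 CPM in anti-CD3 5, by counting error alone. It was too low for the count filter, and without a filter its fitted log2 difference was 0.13 ± 0.81 (SE), so no difference was detectable at this depth. Of 7 basophil and mast cell genes, 2 had 0 counts in all libraries.

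Enpp2, which encodes autotaxin, had the highest level of the set per kb. Its normalized counts in IgG were 342 at the lowest, 477 at the median and 966 at the highest, against 430, 478 and 550 in anti-CD3. The medians were nearly equal, and the highest IgG value came from IgG 6. The log2 difference was -0.07 ± 0.22 (SE; edgeR adjusted p = 0.882), with a 95% interval of -0.54 to 0.39. Its sign changed to 0.20 without IgG 6 and to 0.25 without IgG 5 and IgG 6. Across the 12 libraries, log2 Enpp2 and the acinar score had a Pearson r of -0.76, and of -0.14 over the 10 libraries without IgG 5 and IgG 6, as a description of libraries that share the scaling. The part of acinar content in the Enpp2 values was not tested.

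Enpp4 had normalized counts of 112, 231 and 380 (lowest, median, highest) in IgG and of 126, 159 and 270 in anti-CD3. In anti-CD3, 4 of 6 libraries lay below the IgG median, but the ranges overlapped widely. The log2 difference was -0.41 ± 0.26 (SE; edgeR adjusted p = 0.410, 95% interval -0.97 to 0.15). Enpp5, its neighbour on chromosome 17, was the steadiest member in IgG, at 252, 321 and 392, and ran at 256, 310 and 370 in anti-CD3. Its log2 difference was -0.03 ± 0.15 (SE; edgeR adjusted p = 0.934, 95% interval -0.35 to 0.29). This interval is the narrowest of the set. Like those of Enpp2, Enpp4, Entpd1 and Entpd2, it leaves out a change as large as that fitted for Enpp1 under the same scaling.

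Of the ATP and ADP hydrolases, Entpd1 (CD39), found on endothelium and on many leukocytes, had normalized counts of 260, 428 and 517 (lowest, median, highest) in IgG and of 206, 322 and 520 in anti-CD3. The highest value of both groups was nearly the same. The log2 difference was -0.28 ± 0.21 (SE; edgeR adjusted p = 0.473, 95% interval -0.72 to 0.16). Entpd2, which prefers ATP over ADP, was low, at 30.4, 47.1 and 71.9 in IgG and 37.6, 53.5 and 58.2 in anti-CD3. Its log2 difference was 0.01 ± 0.26 (SE; edgeR adjusted p = 0.984, 95% interval -0.55 to 0.58). The IgG libraries spanned the whole anti-CD3 range, and with library totals as the only scaling the difference was -0.52.

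Nt5e (CD73), which forms adenosine from AMP, varied most between libraries of the same group together with Cd38. Nt5e had normalized counts of 50.7, 59.1, 4.50, 15.6, 55.4 and 144 in IgG 1 to 6 and of 66.8, 29.5, 8.50, 69.2, 34.1 and 74.1 in anti-CD3 1 to 6. Cd38, the NAD-consuming enzyme of lymphocytes and other cells, had 45.4, 37.9, 11.3, 25.2, 77.2 and 198 in IgG and 63.2, 23.0, 10.9, 42.4, 32.7 and 62.0 in anti-CD3. Both were highest in IgG 6 and lowest, within each treatment, in IgG 3 and anti-CD3 3, and the treatments overlapped throughout. The log2 difference was -0.26 ± 0.64 for Nt5e (SE; edgeR adjusted p = 0.849, 95% interval -1.64 to 1.12) and -0.80 ± 0.60 for Cd38 (SE; edgeR adjusted p = 0.486, 95% interval -2.10 to 0.51). Without IgG 5 and IgG 6, these became 0.49 and 0.34, so the sign of both rested on those libraries. Without IgG 6 alone they were 0.30 and -0.06. The interval of Nt5e takes in a rise as large as that fitted for Enpp1.

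Nt5e and Cd38 went up and down together, with a Pearson r of 0.92 on log2 values over 12 libraries, 0.94 for deviations from the group means and 0.95 over the 10 libraries without IgG 5 and IgG 6. Both also followed the scores of several cell type lists, most closely that of B cells for Cd38. The 8 B cell genes summed to 30.4 to 2067 normalized counts in IgG, with IgG 6 highest, and to 14.6 to 440 in anti-CD3. The B cell score, from the 6 genes that were tested, had an r of 0.98 with Cd38 and 0.91 with Nt5e over 12 libraries. Without IgG 5 and IgG 6, these values were 0.97 and 0.90. The ties were not particular to B cells. Over 12 libraries, Cd38 had an r of 0.97 with the regulatory T cell, 0.93 with the T cell, 0.93 with the macrophage, 0.90 with the basophil and mast cell and 0.88 with the stellate cell score. Nt5e had 0.90 with the regulatory T cell, 0.88 with the T cell, 0.84 with the endothelial and 0.83 with the plasma cell score. The 12 T cell genes summed to 100.2 to 2607 in IgG and 65.5 to 818 in anti-CD3, with none of them at 0 in every library. These are correlations over libraries that share their scaling and isolation, and the part of any of these cell types in the values of Nt5e and Cd38 was not tested.

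**Figure D3:**
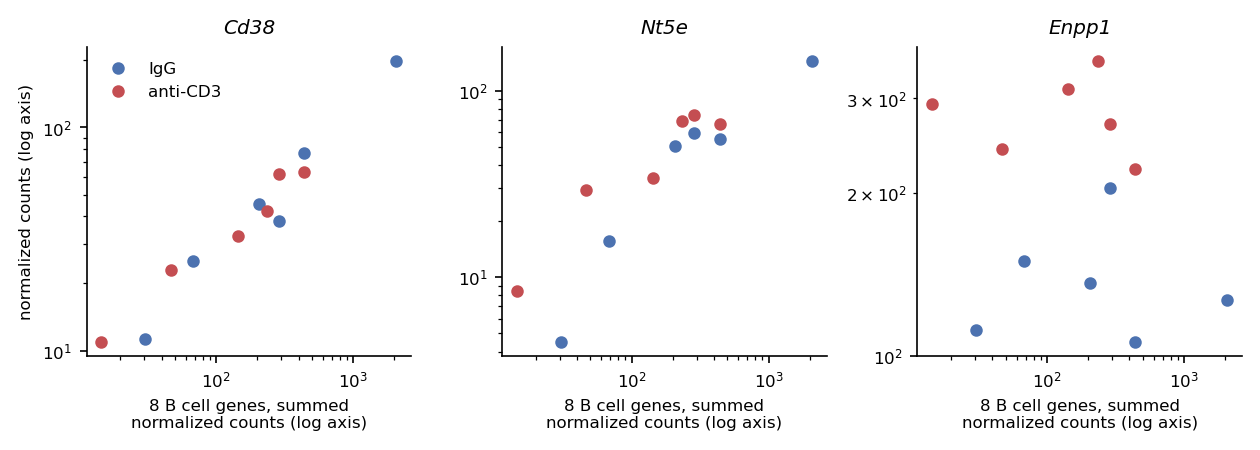
Normalized counts of Cd38, Nt5e and Enpp1 (vertical log axes) against the summed normalized counts of 8 B cell genes (horizontal log axes), with 1 point per IgG (blue) or anti-CD3 (red) library. Cd38 and Nt5e climb with the B cell genes in both groups. On this scale, the Enpp1 values stay in 2 levels that differ by treatment, the difference that chose the gene.

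Enpp1 did not share this pattern. Its r with the B cell score was -0.23 over 12 libraries, -0.10 for deviations from the group means and 0.19 without IgG 5 and IgG 6. With the T cell score the same values were -0.31, 0.02 and -0.03. Of 7 plasma cell genes tested, edgeR called 0 and 3 had an unadjusted p under 0.05, beside 2408 of 13115 over all genes. The log2 differences of the plasma cell genes were mixed, 4 positive and 3 negative, from -0.84 to 1.02. The sum over the 8 listed genes was 4254 to 5700 normalized counts in IgG and 6372 to 10735 in anti-CD3. This list includes secretory genes that acinar cells also express. The r of Enpp1 with the plasma cell score was 0.42 over 12 libraries, -0.07 for deviations from the group means and 0.66 without IgG 5 and IgG 6. With the acinar score the same values were 0.56, 0.21 and 0.34. The part of either in the Enpp1 difference was not tested.

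Ada, which deaminates adenosine, had normalized counts of 16.8, 35.5 and 63.5 (lowest, median, highest) in IgG and of 19.03, 29.5 and 56.6 in anti-CD3. The groups overlapped over nearly their full ranges. The log2 difference was -0.36 ± 0.34 (SE; edgeR adjusted p = 0.573, 95% interval -1.09 to 0.36). Of the 8 members tested beside Enpp1, 0 passed an adjusted p of 0.05 and 0 an unadjusted p of 0.05 in edgeR. DESeq2 and limma-voom also called 0. With library totals as the only scaling, edgeR again called 0, but 6 of the 8 had an unadjusted p under 0.05. The same held for 6550 of all 13115 genes under that scaling. Against a background of 0.0762% called, 0 of 8 is no result about the set. Of these 8, 7 had a negative difference and 1 a positive one, with a median of -0.27 beside -0.05 for all genes tested. Over all genes tested, 7233 differences were negative and 5882 positive. The signs of the 8 rested in part on IgG 5 and IgG 6. Without those libraries, Enpp2 was at 0.25, Nt5e at 0.49 and Cd38 at 0.34, and the rest were negative, from -0.26 (Entpd1) to -0.05 (Enpp5).

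Compared per kb of exon, on the scale of normalized counts, the genes fell in the order Enpp2 (median over 12 libraries 82.7), Entpd1 (66.2), Enpp5 (63.8), Enpp4 (48.1), Entpd2 (25.2), Enpp1 (20.8), Ada (16.2), Cd38 (10.3), Nt5e (6.17) and Enpp3 (0.429). Several neighbours were not separated. Entpd1 lay above Enpp5 in 7 of 12 libraries, Entpd2 above Enpp1 in 7, Enpp1 above Ada in 6 and Ada above Cd38 in 7. Enpp2 lay above Entpd1 in 10, Enpp5 above Enpp4 in 10 and Enpp4 above Entpd2 in 11. Cd38 lay above Nt5e, and Nt5e above Enpp3, in all 12. Enpp1 had a median of 12.8 in IgG and 27.4 in anti-CD3, and its rank was 5 to 9 in the IgG libraries and 5 to 6 in the anti-CD3 libraries. When levels were taken per kb of the longest transcript instead, Enpp1 lay above Entpd2 in 8 of 12 libraries, 2 in IgG and 6 in anti-CD3. The medians of Nt5e and Cd38 then changed places, at 13.3 and 12.3, although Nt5e lay above Cd38 in only 3 of 12 libraries.

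**Figure D4:**
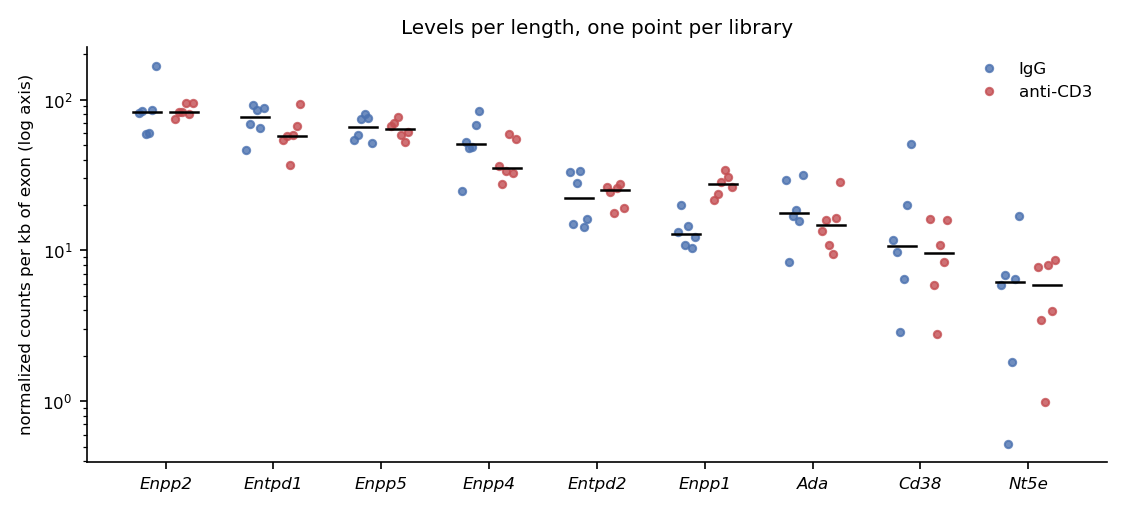
Normalized counts per kb of exon (log axis) for 9 genes ordered by their median over 12 libraries, with 1 point per IgG (blue) or anti-CD3 (red) library and black lines at the group medians. Enpp2 leads with a median of 82.7, Enpp1 moves from a median of 12.8 in IgG to 27.4 in anti-CD3, and Enpp3, with a median of 0.429, is not drawn.

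The surrounding pathways were read from 12 lists that held 102 genes. Of these genes, 101 were found in the count table and 79 passed the filter. edgeR called 0 of the 79, with 12 at an unadjusted p under 0.05, 26 positive and 53 negative differences and a median of -0.18. Over all 13115 genes, 2408 had an unadjusted p under 0.05, 5882 differences were positive and 7233 negative, and the median was -0.05. limma-voom also called 0, and DESeq2 called 1, Adk. In normalized counts, groups without overlap were found for 2 of the 79, Adk and Nmnat3, both higher in anti-CD3. Over all genes, 1.14% were higher without overlap and 0.648% lower.

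Adk, adenosine kinase, which returns adenosine to AMP inside the cell, had normalized counts of 214, 393, 457, 397, 229 and 251 in IgG 1 to 6 and of 590, 498, 586, 495, 543 and 802 in anti-CD3 1 to 6. On this scale, all treated libraries lay above all controls. The log2 difference was 0.86 ± 0.21 (SE), with an adjusted p of 0.0731 in edgeR and of 0.00991 in DESeq2. The edgeR adjusted p was 0.0161 with no filter on low counts and 0.275 without IgG 5 and IgG 6, where the difference was 0.68. Adding the acinar covariate gave a difference of 0.61 and an edgeR adjusted p of 0.369. With library totals as the only scaling, the Adk difference was 0.30 ± 0.23 (SE; edgeR adjusted p = 0.267). Of the 13 salvage and breakdown genes tested, 4 were positive and 9 negative. Xdh, xanthine oxidoreductase, which makes uric acid, had -0.85 ± 0.35 (SE; edgeR adjusted p = 0.233), and -0.35 without IgG 5 and IgG 6.

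Nmnat3, which makes NAD, had 12.4 to 19.7 normalized counts in IgG and 20.6 to 40.4 in anti-CD3. The gap between the groups was narrow, and the log2 difference of 0.82 ± 0.25 (SE) did not pass the edgeR test (adjusted p = 0.135). The Nmnat3 difference was 0.78 without IgG 5 and IgG 6. With library totals as the only scaling it was 0.15 ± 0.35 (SE; edgeR adjusted p = 0.711). Bst1, a relative of Cd38 that also acts on NAD, had -1.99 ± 0.87 (SE; edgeR adjusted p = 0.251), with its highest value, 147, in IgG 6. The Bst1 difference was -0.77 without IgG 5 and IgG 6. Bst1 is counted both among the NAD genes, of which 3 of 12 tested were positive, and among the other ectoenzymes, of which 2 of 9 were. In the latter list, Entpd6 had 0.42 ± 0.17 (SE; edgeR adjusted p = 0.227), and 0.40 without IgG 5 and IgG 6.

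None of the receptor genes passed the edgeR test. P2ry6, a receptor for UDP, had 31.5 to 123 normalized counts in IgG and 20.6 to 45.1 in anti-CD3, a log2 difference of -0.98 ± 0.32 (SE; edgeR adjusted p = 0.149). P2ry14, a receptor for UDP-glucose, had 0.51 ± 0.21, and 4 of 5 P2Y genes tested were negative. Leaving out IgG 5 and IgG 6 gave -0.71 for P2ry6 and 0.57 for P2ry14. Among 3 P2X genes, P2rx4 had 0.35 ± 0.17 (SE; edgeR adjusted p = 0.285) and P2rx1 0.64 ± 0.34, or 0.18 and 0.28 without IgG 5 and IgG 6. Of 3 adenosine receptor genes tested, Adora2a, a receptor that dampens lymphocytes, had -0.56 ± 0.36 (SE; edgeR adjusted p = 0.410) and Adora1 -0.27 ± 0.25. Without those libraries, Adora2a was at -0.04 and Adora1 at -0.51.

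None of the transport and release genes passed the adjusted threshold. Of 5 nucleoside transporter genes tested, 3 had an unadjusted p under 0.05 in edgeR, all with negative differences. An unadjusted p under 0.05 was found for 2408 of all 13115 genes tested. The transporter share was the largest among the pathway lists, and the largest of several shares is high by selection. Slc29a1, the main equilibrative nucleoside transporter, had -0.39 ± 0.16 (SE; edgeR adjusted p = 0.215) and Slc29a3 -0.64 ± 0.28, and 4 of the 5 were negative. Leaving out IgG 5 and IgG 6 gave -0.39 for Slc29a1 and -0.46 for Slc29a3. Panx1, an ATP release channel, had -0.92 ± 0.43 and Gjb1, a gap junction protein, 0.48 ± 0.35, with 2 of 6 in that list positive. Without IgG 5 and IgG 6, these became -0.29 and 0.12. In the list for pyrophosphate and phosphate handling, 4 of 6 tested genes were positive, Spp1 (osteopontin) with 0.36 ± 0.24 and Slc20a1, a phosphate transporter, with 0.13 ± 0.14. The Spp1 difference was 0.14 without IgG 5 and IgG 6, and that of Slc20a1 0.12.

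Genes around the other substrates and partners of ENPP1, and around the product of ENPP2, gave no call either. In the cGAS-STING list, 1 of 7 tested genes was positive. Cgas, the enzyme that makes cGAMP, had -1.41 ± 0.66 (SE; edgeR adjusted p = 0.274) and Samhd1, which degrades dNTPs, had -0.97 ± 0.65. Without IgG 5 and IgG 6, Cgas was at -0.04 and Samhd1 at 0.31. Of 7 genes of insulin receptor signalling, 4 were positive, with Pik3r1 at -0.32 ± 0.21 and Akt2 at 0.21 ± 0.14, or -0.12 and 0.11 without those libraries. In the autotaxin pathway, which starts from the product of Enpp2, 2 of 6 were positive. Lpar1, a receptor for lysophosphatidic acid, had -1.10 ± 0.53 (SE; edgeR adjusted p = 0.281) and Plpp3, which degrades this lipid, -0.63 ± 0.46. Without IgG 5 and IgG 6, Lpar1 was at -0.40 and Plpp3 at 0.09.

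**Figure D5:**
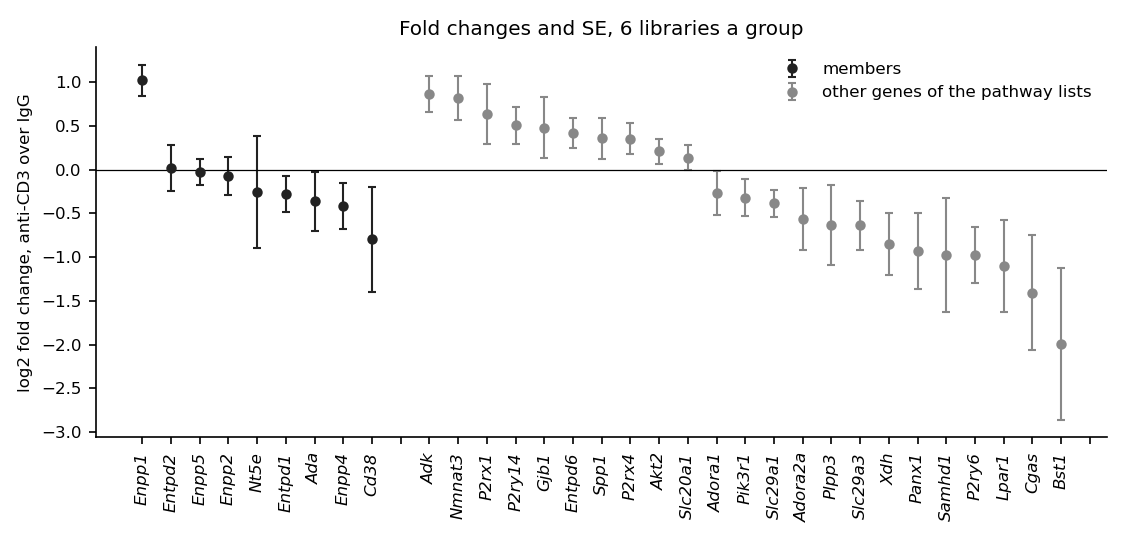
Fitted log2 difference between anti-CD3 and IgG with its SE (vertical axis, 6 libraries a group) for 9 genes of the set (black) and for up to 2 genes with the smallest p from each of the 12 pathway lists (grey). Enpp1 lies at 1.02, the other black points lie between -0.80 and 0.01, and no black point but Enpp1 is more than 0.1 above 0.

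The genes whose levels most resembled Enpp1 were looked for among 10536 genes with a mean log2 CPM of at least 1, by Pearson r of log2 CPM over the 12 libraries. The highest values were those of Prelid2 (0.946), Rassf1 (0.900), Pgm2 (0.894), Tmem183a (0.892) and Insig2 (0.889). These values include the difference between the treatments that chose Enpp1. When group means were taken out first, the highest were Nadk (0.824), Zcchc7 (0.807), Prelid2 (0.781), Insr (0.766) and Slc41a1 (0.764). Prelid2, the 1 gene in both groups of 5, had means of 55.5 normalized counts in IgG and 106 in anti-CD3. Insr, the insulin receptor, had means of 372 and 411, and its log2 difference was 0.15 ± 0.19 (SE). The highest of so many correlations is high by selection, and these are given as likeness only.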

How the data were processed

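Islet RNA was poly(A)-selected, fragmented and randomly primed, per the labels' protocols. Trimmomatic 0.36, STAR 2.5.2b, featureCounts of Subread 1.5.2, DESeq2 and GRCm38 (mm10) are named without order or options, per the submitters' processing notes. The annotation release, like the strand setting and the handling of multi-mapping reads, is not given by the sources used here. The deposited counts are whole numbers per gene. The authors' second table gives a normalized signal (counts over 1 size factor per library, checked against the counts), a log2 fold change and p-values, with 2935 adjusted p NA. Normalized counts in the text use those size factors. Columns were matched by group and number, 1 carrying an unexplained prefix, and 0 were left unmapped. Symbols came from GENCODE M21 for 48970 genes and from the deposited table for 17.

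Counts were tested in R 4.3.3 with edgeR 4.0.16 (filterByExpr, minimum count 10, minimum total 15; TMM; robust quasi-likelihood F test, two-sided, Benjamini-Hochberg over 13115 genes, adjusted p under 0.05). TMM factors ran from 0.733 to 2.36. Log2 CPM used a prior count of 2. Scores are the mean log2 CPM of the tested genes of a list. These were 6 of 8 for B cells, 7 of 8 for plasma cells, 9 of 10 for macrophages and 3 of 7 for basophils and mast cells. Alternatives were DESeq2 1.42.0, limma-voom 3.58.1 with quality weights, upper-quartile or RLE factors, TMM without cell type genes, 2 other filters, the replicate block, an acinar covariate, a length offset, and libraries left out. Library totals alone were added after the data were seen. The procedure was tested on simulated counts drawn gene by gene. These carry no shared shift of cell types between libraries, so they are no check on the composition of these libraries.

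The members and lists were chosen with earlier results of these data known. Named genes were all members, of each pathway list the 2 tested genes with the smallest p, and the 5 genes most like Enpp1 by each of 2 measures; Insr was also given its difference. Pnp had no match in the count table. In the 13 cell type lists edgeR called 0 genes, with 4 acinar, 2 duct, 1 beta, 7 stellate, 1 endothelial, 4 T, 3 plasma and 1 macrophage genes at an unadjusted p under 0.05. Their median log2 differences were 0.64 for acinar, 0.19 for duct, -0.11 for beta, -0.20 for alpha, delta and PP, -1.03 for stellate, -0.11 for endothelial and -0.47 for Schwann and neuronal genes. They were -1.24 for T, -0.81 for regulatory T, -1.34 for B, 0.40 for plasma, -0.93 for macrophage and -0.38 for basophil and mast cell genes. Upstream sequences came from RefSeq's table, where 8 of 10 members matched, without Enpp2 and Enpp5.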

Additional observations from a re-analysis of the deposited data

Results flagged for a closer look

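In 18 groups of 6 libraries looked at (9 genes, 2 treatments), 3 held a value far from the rest, where chance gives about 1 in 20. Enpp2 had 966 normalized counts in IgG 6, and the next value in IgG was 490. Cd38 had 198 in IgG 6, and the next was 77.2. Ada had 56.6 in anti-CD3 6, and the next was 32.7. IgG 6 was also the library with the lowest acinar share (27.2%) and the highest summed level of B cell genes (2067), whose part in these values was not tested.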

How the results depend on the processing

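The number of genes called over the whole table was unstable. It was 10 in edgeR, 6 with upper-quartile factors, 4 with the length offset, 1 without IgG 5 and IgG 6, and 0 under the acinar covariate or with library totals alone, but 167 with no filter on low counts, 135 with limma-voom and 455 with DESeq2. Leaving out 1 library at a time gave 0 to 203 calls, with 0 when IgG 5 or number 1, 5 or 6 of anti-CD3 was left out and 203 when number 2 of anti-CD3 was. Members other than Enpp1 were called 0 times under each of these settings. The log2 difference of Enpp1 lay between 0.95 and 1.17 when 1 library was left out and was 0.41 with library totals alone, a scaling chosen after seeing the data.

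The differences of several other members changed sign. Enpp4 stayed negative, but was only -0.064 with the acinar covariate and -0.092 without IgG 5 and IgG 6. Enpp2 became 0.44 with the acinar covariate, 0.25 without IgG 5 and IgG 6 and 0.19 with limma-voom, and ran from -0.16 to 0.20 over single libraries left out. Enpp5 became 0.035 with the length offset and ran from -0.091 to 0.040. Entpd2 became -0.0030 with upper-quartile factors, -0.52 with library totals alone, -0.26 with the acinar covariate, -0.079 with the length offset and -0.23 without IgG 5 and IgG 6, and ran from -0.084 to 0.16. Nt5e became 0.92 with the acinar covariate, 0.49 without IgG 5 and IgG 6 and 0.28 with limma-voom, and ran from -0.49 to 0.30. Cd38 became 0.70 and 0.34 with the first and the second of these and ran from -1.01 to -0.058. With library totals alone, Enpp2 was at -0.93, Enpp4 at -1.21, Enpp5 at -0.64 and Entpd1 at -0.97. Nt5e was then at -1.28, Cd38 at -1.91 and Ada at -1.15, beside a median of -0.70 over all genes. The cause was not tested.

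With the replicate number as a block, edgeR called 0 genes, Enpp2 became 0.017 and Enpp1 1.04. Whether equal numbers mark paired samples is not settled by these values. Correlations of same-numbered libraries' deviations were 0.0626, 0.129, 0.552, -0.203, -0.287 and 0.537 for numbers 1 to 6. Of the 6 IgG libraries, 3 correlated best with their own number. Depth limits Enpp3 most, with 55 counts in all, and then Nt5e and Cd38 in libraries with 4 to 13 counts.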

Other observations

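Among the lists read as a background to the set, stellate cell, fibroblast and pericyte genes had 12 of 12 negative differences. Of these genes, 7 had an unadjusted p under 0.05 in edgeR and 0 passed the adjusted threshold. Over all 13115 genes, 2408 had an unadjusted p under 0.05 and 7233 differences were negative. Genes of 1 list can vary together across libraries and are not separate results. The summed normalized counts of the stellate list were 1460 to 5921 in IgG and 708 to 2682 in anti-CD3. IgG 6 was highest, and the next IgG library, IgG 2, had 3022. All 9 macrophage genes tested were also negative, 1 at an unadjusted p under 0.05 and 0 called. The macrophage list summed to 1347 to 10910 in IgG, highest in IgG 6, and to 872 to 3821 in anti-CD3. Signs on 1 side were not particular to these lists. All tested T cell (12), regulatory T cell (5), B cell (6) and basophil and mast cell (3) genes were negative too. All 18 acinar genes were positive.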
